A study of Arabidopsis thaliana with 6 samples.

Results

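WRKY factors are plant transcription factors named after a conserved stretch of their DNA-binding domain. The 58 members described here are the listed Arabidopsis WRKY loci found as rows of both deposited tables, out of 32548 genes in each. They were chosen by locus name and not by a cutoff on measured values, though earlier results of these data were known. The epl1a/b libraries, 2 in number, came from seedlings with the genotype epl1a/b(-/-), and 2 libraries came from the Col-0 wild type they are set against. A separate table holds 1 Col-0 library from plates wrapped in foil, called dark here, and 1 Col-0 library kept in the light. All seedlings were 2 weeks old and grew on Murashige and Skoog plates at 23 °C in days of 16 h light and 8 h dark.

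EPL1A and EPL1B are the plant Enhancer of polycomb genes, whose proteins belong to the NuA4 histone acetyltransferase. EPL1A had normalised read counts of 93.8 and 79.3 in the epl1a/b libraries, against 282 and 225 in wild type (log2 change -1.54 with SE 0.16; limma adjusted p = 0.000233). EPL1B had 4656 and 4399 in the epl1a/b libraries, against 335 and 351 in wild type (log2 change 3.72 with SE 0.07; limma adjusted p = 7.41e-07). The higher EPL1B level goes against the label, so epl1a/b below always means the libraries labelled epl1a/b. Their titles also carry the histone mark name H4K5Ac, while their other labels say total RNA. How many seedlings were pooled, whether libraries of the same genotype are from separate plates, and how long the dark treatment lasted are not given in the sources used here. The p-values below thus cover just the spread among these libraries, and that spread may be technical. Recovered depth was 19067459 to 19088784 reads in epl1a/b and 18796289 to 18821439 in wild type.

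Each WRKY domain pairs its conserved heptapeptide with a zinc finger and binds the W-box, a short DNA element in the promoters of many defence and stress genes, including WRKY genes themselves. Subgroup I has a pair of such domains, subgroups IIa to IIe have one, and subgroup III has one with a different zinc finger. The family is best known for responses to pathogens, downstream of mitogen-activated protein (MAP) kinases and salicylic acid, and for roles in leaf senescence, phosphate supply, seed coat and leaf hairs.

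The DNA that codes for the heptapeptide was read from the RefSeq annotation of the TAIR10.1 assembly to check the members and their subgroups, and all 58 members matched by locus. A heptapeptide-coding stretch of 21 bases was found in every member. All 10 members of subgroup I had 2 of them, and the other 48 members had 1. The sixth codon, in capitals below, is CAA in 37 and CAG in 29 of the 68 stretches, both for glutamine. The codon is AAG for lysine in WRKY50 and WRKY51, a pair in subgroup IIc reported to link salicylic acid to jasmonate signalling. The lines show both stretches of WRKY33, 1 from each of WRKY46 and WRKY61, and those of the lysine pair, from chr2:16109358-16109378 and chr2:16109982-16110002 (WRKY33, plus strand), chr2:19044313-19044333 (WRKY46, minus strand), chr1:6510265-6510285 (WRKY61, plus strand), chr5:9147579-9147599 (WRKY50, minus strand) and chr5:25908864-25908884 (WRKY51, plus strand).
WRKY33 first domain: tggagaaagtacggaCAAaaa
WRKY33 second domain: tggagaaaatacggcCAGaaa
WRKY46: tggagaaaatatgggCAAaaa
WRKY61: tggaggaaatatggcCAGaaa
WRKY50: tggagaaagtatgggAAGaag
WRKY51: tggaggaagtatggcAAGaaa

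More WRKY members were called higher in epl1a/b than lower, and 31 were not called. Of the 58 members, 24 were called higher and 3 were called lower, where called means a Benjamini-Hochberg adjusted p under 0.05 from limma over all 23658 genes tested. That is 41.4% higher against 22.5% of all genes tested, and 5.17% lower against 24.1%. All 58 members passed the filter on low values, which asked for a normalised count of 1 or more in 2 or more libraries. The median log2 change was 0.47 for the members and 0.02 for all genes tested, and 47 members had a positive change. At an unadjusted p under 0.05, 3 members were lower, WRKY1, WRKY6 and WRKY32, so by that measure too none was lower in subgroups IIa, IIc, IId, IIe and III. edgeR's quasi-likelihood test called 26 members higher and 3 lower of 52, against 26% higher and 27% lower of all genes it tested. DESeq2 called 22 higher and 2 lower of 57, against 17% and 19.6% of all genes it tested. A value of 1 was added before taking log2, so the fold changes of low genes are understated. At least 2-fold changes were called for 12 members higher and 0 lower, while 8.23% of all genes tested were at least 2-fold higher and 7.99% at least 2-fold lower. Both epl1a/b values lay above both wild type values for 42 members (72.4%), which held for 38.1% of all genes tested, and below them for 8 members (13.8% against 37.6%). No called member had overlapping groups, so a lack of overlap adds nothing to a call.

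**Figure D1:**
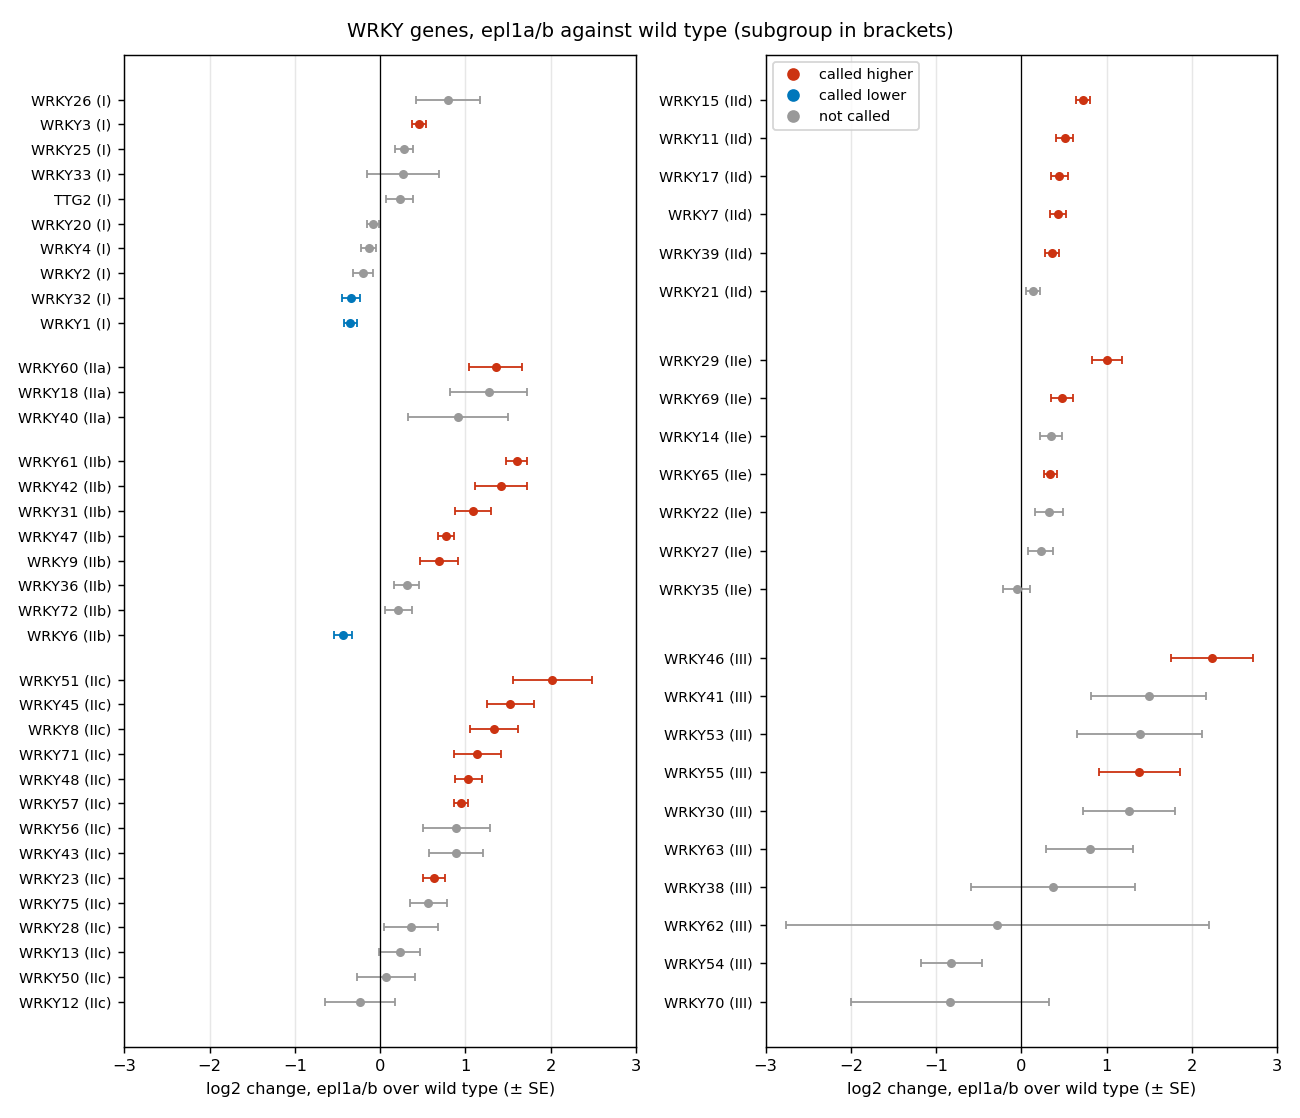
Log2 change of each of the 58 WRKY members, epl1a/b over wild type, with its standard error, by subgroup (x axis, log2(value + 1) scale; 2 libraries per genotype). Red points are the 24 members called higher and blue points the 3 called lower at a limma adjusted p under 0.05. WRKY2, WRKY4, WRKY20 and WRKY35, drawn below 0, lie above 0 when libraries are scaled to equal totals.

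The deposited scaling matters for the size of these shifts. With libraries scaled to equal totals instead, the median of all genes tested moved to 0.25 and that of the members to 0.71. The members lay 0.45 above all genes under both scalings. Rescaling whole libraries shifts nearly all genes by the same amount, so this likeness is not a check on the result. On equal totals 35 members were called higher and 0 lower (0 lower also at an unadjusted p under 0.05), against 37.8% higher and 15.8% lower of all genes tested there. Fits with 1 library left out, given next, also called members that the full fit did not. Leaving out 1 library gave 14 members higher without wild type replicate 1, 20 without the other wild type library, 16 without replicate 1 of epl1a/b and 17 without its replicate 2. The share of all genes tested that was called higher was 14.2%, 16.0%, 12.5% and 11.5% in those fits.

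**Figure D2:**
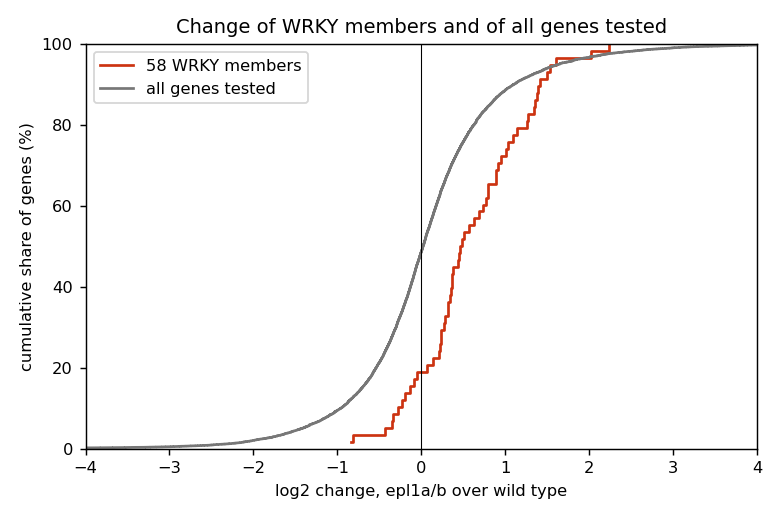
Cumulative share of genes (y axis, percent) by log2 change, epl1a/b over wild type (x axis, log2(value + 1) scale), for the 58 WRKY members in red and all 23658 genes tested in grey. The member curve lies to the right of the grey curve over most of its range, with medians of 0.47 and 0.02. A few genes lie beyond the plotted range.

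Leaf markers moved with genotype as well. All 5 leaf markers were called lower in epl1a/b, from 1.81-fold to 3.81-fold, against 24.1% of all genes tested called lower. The part of the leaf markers in the WRKY values was not tested. In whole seedlings, fewer cells of a type and less RNA per cell cannot be told apart. Of 9 root markers, 4 were called lower (44.4%, against 24.1% of all genes tested) and 1 was called higher (11.1%, against 22.5%). Of 10 seed storage and oil body genes 4 were tested, with 2 called higher (50%, against 22.5%) and 0 lower (against 24.1%). The higher ones were SESA4, with 31.4 and 34.2 in epl1a/b, against 1.06 and 1.04 in wild type, and CRA1, also a low gene. Their part in the WRKY values was not tested either.

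By level, the WRKY transcripts spanned a wide range. Per kilobase of exon, WRKY15 was the highest member in both genotypes, at 1040 and 938 normalised counts per kb in epl1a/b and 612 and 580 in wild type. WRKY57 came next in epl1a/b at 532 and 562 per kb, against 269 and 299 in wild type, where its mean ranked 7 of 58. WRKY17, at 498 and 595 per kb in epl1a/b, overlapped WRKY57 there, so those neighbours did not differ beyond their spread. In wild type the order after WRKY15 was WRKY1, WRKY65, WRKY17 and WRKY11, with means of 459, 415, 400 and 333 per kb. WRKY1 ranked 8 in epl1a/b, with a mean of 359 per kb. The lowest member in both genotypes was WRKY41, with means of 2.59 per kb in epl1a/b and 0.441 per kb in wild type, and its values are uncertain, with 41.7% of the exon shared by position with a neighbour.

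Subgroup IIb held the member with the lowest adjusted p of the family. Of its 8 members 5 were called higher (62.5%, against 22.5% of all genes tested) and 1 lower (12.5%, against 24.1%). WRKY61 (AT1G18860) had 272 and 285 normalised counts in epl1a/b, against 89.8 and 92.3 in wild type. The epl1a/b values are close to each other and well above the wild type pair, and the change was 3.03-fold (log2 change 1.60 with SE 0.12; limma adjusted p = 4.61e-05). Another gene overlaps 11.5% of its exon bases, and whether counting used strand is not given, so some of these reads may belong to the neighbour. WRKY42 (AT4G04450), a regulator of phosphate supply through PHT1;1 and PHO1, had 45.7 and 33.8 in epl1a/b, against 14.8 and 13.5 in wild type (log2 change 1.42 with SE 0.31; limma adjusted p = 0.0069). WRKY31 (AT4G22070) had 78.3 and 93.0 in epl1a/b, against 43.2 and 36.4 in wild type (log2 change 1.09 with SE 0.22; limma adjusted p = 0.0047). Neither gene's groups overlapped. The WRKY31 call failed without epl1a/b replicate 2 (log2 change 0.97), and the WRKY42 call without wild type replicate 1 (1.48) or 2 (1.36) or epl1a/b replicate 1 (1.20).

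The rest of subgroup IIb moved less, and WRKY6 moved the other way. WRKY47 (AT4G01720) had 581 and 592 in epl1a/b, against 325 and 361 in wild type (log2 change 0.77 with SE 0.09; limma adjusted p = 0.000398). WRKY9 (AT1G68150) had 116 and 137 in epl1a/b, against 63.6 and 95.3 in wild type (log2 change 0.69 with SE 0.22; limma adjusted p = 0.037), a call that failed without wild type replicate 1 (0.40) or either epl1a/b library (0.80 without replicate 1, 0.57 without 2), as well as with DESeq2 (adjusted p = 0.103). WRKY6 (AT1G62300), a factor of senescence and phosphate responses that represses PHO1, had 368 and 434 in epl1a/b, against 536 and 547 in wild type. Both epl1a/b values were below wild type, 1.35-fold lower (log2 change -0.44 with SE 0.10; limma adjusted p = 0.01). That call failed on equal totals (-0.20) and without wild type replicate 1 (-0.45) or 2 (-0.42) or epl1a/b replicate 1 (-0.32). WRKY36 and WRKY72, a factor of basal defence, were not called, with log2 changes of 0.31 and 0.21.

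Subgroup IIc, the largest with 14 members, had 7 called higher (50%, against 22.5% of all genes tested) and 0 lower (against 24.1%). Its median log2 change was 0.89. WRKY57 (AT1G69310), reported in drought tolerance and jasmonate-induced senescence, had 1101 and 1164 in epl1a/b, against 557 and 618 in wild type. The gap between genotypes was far wider than that within either of them (log2 change 0.95 with SE 0.08; limma adjusted p = 9.15e-05). WRKY48 (AT5G49520), a repressor of basal defence against bacteria, had 240 and 204 in epl1a/b, against 97.3 and 119 in wild type (log2 change 1.03 with SE 0.16; limma adjusted p = 0.00137). WRKY45 (AT3G01970), an activator of senescence and of the phosphate transporter gene PHT1;1, had 385 and 288 in epl1a/b, against 89.1 and 148 in wild type. Its change was 2.88-fold (log2 change 1.53 with SE 0.28; limma adjusted p = 0.0074), and the call failed without epl1a/b replicate 1 (1.32). Neither WRKY48 nor WRKY45 had overlapping groups.

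WRKY51, WRKY8 and WRKY71, also called higher in subgroup IIc, were low genes. WRKY51 (AT5G64810) had 36.4 and 16.1 in epl1a/b, against 5.28 and 5.19 in wild type (log2 change 2.02 with SE 0.47; limma adjusted p = 0.00934). WRKY8 (AT5G46350), a salt-stress factor, had 41.9 and 42.9 in epl1a/b, against 17.9 and 14.6 in wild type (log2 change 1.34 with SE 0.28; limma adjusted p = 0.00619). WRKY71 (AT1G29860), which promotes branching and flowering, had 49.1 and 40.9 in epl1a/b, against 17.99 and 21.8 in wild type (log2 change 1.14 with SE 0.28; limma adjusted p = 0.0114). In all 3 genes both epl1a/b values were higher than both wild type values, which held for 38.1% of all genes tested. The WRKY51 call failed without wild type replicate 1 (2.03) or 2 (2.01) or epl1a/b replicate 1 (1.45), and that of WRKY8 without epl1a/b replicate 2 (1.32). WRKY71 lost its call without wild type replicate 1 (1.01) or either epl1a/b library (1.01 without replicate 1, 1.27 without 2), as well as with DESeq2 (adjusted p = 0.0766).

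WRKY23 (AT2G47260), an auxin-responsive factor of root development, had 289 and 364 in epl1a/b, against 216 and 202 in wild type (log2 change 0.63 with SE 0.13; limma adjusted p = 0.00617). Its call failed without wild type replicate 1 (0.68) or 2 (0.58) or epl1a/b replicate 2 (0.47). WRKY75 (AT5G13080), known from phosphate starvation and senescence, had 60.2 and 63.0 in epl1a/b, against 39.1 and 43.6 in wild type. The groups did not overlap, but the change of 0.57 ± 0.21 (SE) in log2 was not called (limma adjusted p = 0.0612). WRKY50 (AT5G26170), partner of WRKY51 in the lysine pair, had 72.6 and 35.0 in epl1a/b, against 47.5 and 48.8 in wild type, so its epl1a/b values lay on either side of wild type (log2 change 0.07 with SE 0.34). WRKY12, WRKY13, WRKY28, WRKY43 and WRKY56 were not called, with log2 changes from -0.23 for WRKY12 to 0.89 for WRKY56. edgeR called WRKY43 higher (adjusted p = 0.0389).

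Subgroup IId, whose members carry a calmodulin-binding stretch, had small changes of one direction. Of its 6 members 5 were called higher (83.3%, against 22.5% of all genes tested) and 0 lower (against 24.1%), all by less than 2-fold. In all 6 both epl1a/b values were higher than both wild type values, which held for 38.1% of all genes tested. WRKY15 (AT2G23320), a factor of leaf growth and osmotic stress, had 1336 and 1204 in epl1a/b, against 786 and 745 in wild type (log2 change 0.73 with SE 0.08; limma adjusted p = 0.000313). WRKY11 (AT4G31550) had 880 and 838 in epl1a/b, against 553 and 658 in wild type (log2 change 0.51 with SE 0.10; limma adjusted p = 0.00435). WRKY17 (AT2G24570), which with WRKY11 holds back resistance to Pseudomonas bacteria, had 765 and 914 in epl1a/b, against 639 and 589 in wild type (log2 change 0.45 with SE 0.10; limma adjusted p = 0.00952). WRKY7 and WRKY39 had log2 changes of 0.43 ± 0.09 and 0.36 ± 0.08 (SE), and WRKY21 one of 0.14 ± 0.09 (SE) that was not called. The WRKY11 call failed without epl1a/b replicate 1 (0.47) or 2 (0.54), and the WRKY7 call without wild type replicate 1 (0.35) or epl1a/b replicate 2 (0.39). WRKY17 lost its call without wild type replicate 1 (0.50) or 2 (0.39) or epl1a/b replicate 2 (0.32), and WRKY39 without wild type replicate 1 (0.29) or either epl1a/b library (0.36 without replicate 1, 0.37 without 2).

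In subgroup IIe, WRKY29 (AT4G23550) rose the most, with 108 and 122 in epl1a/b, against 54.9 and 58.1 in wild type. WRKY29 and its relative WRKY22 act downstream of the MAP kinase cascade that flagellin triggers. The WRKY29 change was 2.01-fold (log2 change 1.01 with SE 0.18; limma adjusted p = 0.00265), and another gene overlaps 18% of its exon bases. WRKY22 (AT4G01250) had 95.2 and 96.2 in epl1a/b, against 75.0 and 77.8 in wild type, and was not called (log2 change 0.32 with SE 0.17; limma adjusted p = 0.149). WRKY65 was called higher with a log2 change of 0.34 ± 0.08 (SE), as was WRKY69 with 0.48 ± 0.13 (SE), although 21.1% of the exon bases of WRKY69 are overlapped. The WRKY65 call failed without epl1a/b replicate 2 (0.30). WRKY69 lost its call without wild type replicate 1 (0.51) or 2 (0.45) or epl1a/b replicate 2 (0.34), as well as with DESeq2 (adjusted p = 0.0741). WRKY14, WRKY27 and WRKY35 were not called, with log2 changes of 0.35, 0.23 and -0.06, and WRKY35 turned positive on equal totals (0.18). edgeR called WRKY14 higher (adjusted p = 0.0321).

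Subgroup I, the pair-domain group, had a median log2 change of 0.07, near that of all genes tested. WRKY3 (AT2G03340), which with WRKY4 contributes to resistance against necrotrophic fungi, was the only one of its 10 members called higher (10%, against 22.5% of all genes tested). It had 803 and 797 in epl1a/b, against 602 and 565 in wild type (log2 change 0.46 with SE 0.08; limma adjusted p = 0.00237). WRKY4 (AT1G13960) had 483 and 514 in epl1a/b, against 531 and 564 in wild type, a log2 change of -0.14 that was not called and turned to 0.10 on equal totals. WRKY1 (AT2G04880) had 734 and 762 in epl1a/b, against 921 and 990 in wild type, 1.28-fold lower (log2 change -0.35 with SE 0.08; limma adjusted p = 0.0075). WRKY32 was 1.27-fold lower (log2 change -0.34 with SE 0.11; limma adjusted p = 0.0353). Both falls lost their calls on equal totals, with log2 changes of -0.11 for WRKY1 and -0.10 for WRKY32. The WRKY1 call also failed without wild type replicate 2 (-0.30) or either epl1a/b library (-0.33 without replicate 1, -0.38 without 2), and that of WRKY32 without any 1 of the 4 libraries (-0.41 to -0.27), as well as with DESeq2 (adjusted p = 0.214).

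TTG2 (AT2G37260), the member that controls leaf hairs and seed coat, had 107 and 119 in epl1a/b, against 101 and 91.4 in wild type, and was not called (log2 change 0.23 with SE 0.16; limma adjusted p = 0.272). WRKY25 and WRKY26, which with WRKY33 act in heat tolerance, were not called either. WRKY26 (AT5G07100) had 397 and 315 in epl1a/b, against 144 and 285 in wild type (log2 change 0.80 with SE 0.38), and DESeq2 called it higher (adjusted p = 0.0331). WRKY25 had a log2 change of 0.28 ± 0.11 (SE), and edgeR called it higher (adjusted p = 0.0485). WRKY2 and WRKY20 had log2 changes of -0.20 and -0.08 that turned to 0.04 and 0.16 on equal totals.

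Subgroup IIa holds WRKY18, WRKY40 and WRKY60, which bind one another and jointly tune basal defence and abscisic acid responses. WRKY60 (AT2G25000) had 541 and 435 in epl1a/b, against 142 and 252 in wild type. Both epl1a/b values were higher, with a change of 2.56-fold (log2 change 1.36 with SE 0.31; limma adjusted p = 0.0262). The call failed without epl1a/b replicate 1 (1.20) or 2 (1.51). WRKY18 (AT4G31800) had 360 and 203 in epl1a/b, against 80.8 and 153 in wild type, and was not called despite groups that did not overlap (log2 change 1.27 with SE 0.45; limma adjusted p = 0.0887), although DESeq2 called it higher (adjusted p = 0.00108). WRKY40 (AT1G80840) had 97.8 and 28.3 in epl1a/b, against 25.4 and 30.1 in wild type, so only epl1a/b replicate 1 stood above wild type (log2 change 0.91 with SE 0.59; limma adjusted p = 0.258).

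**Figure D3:**
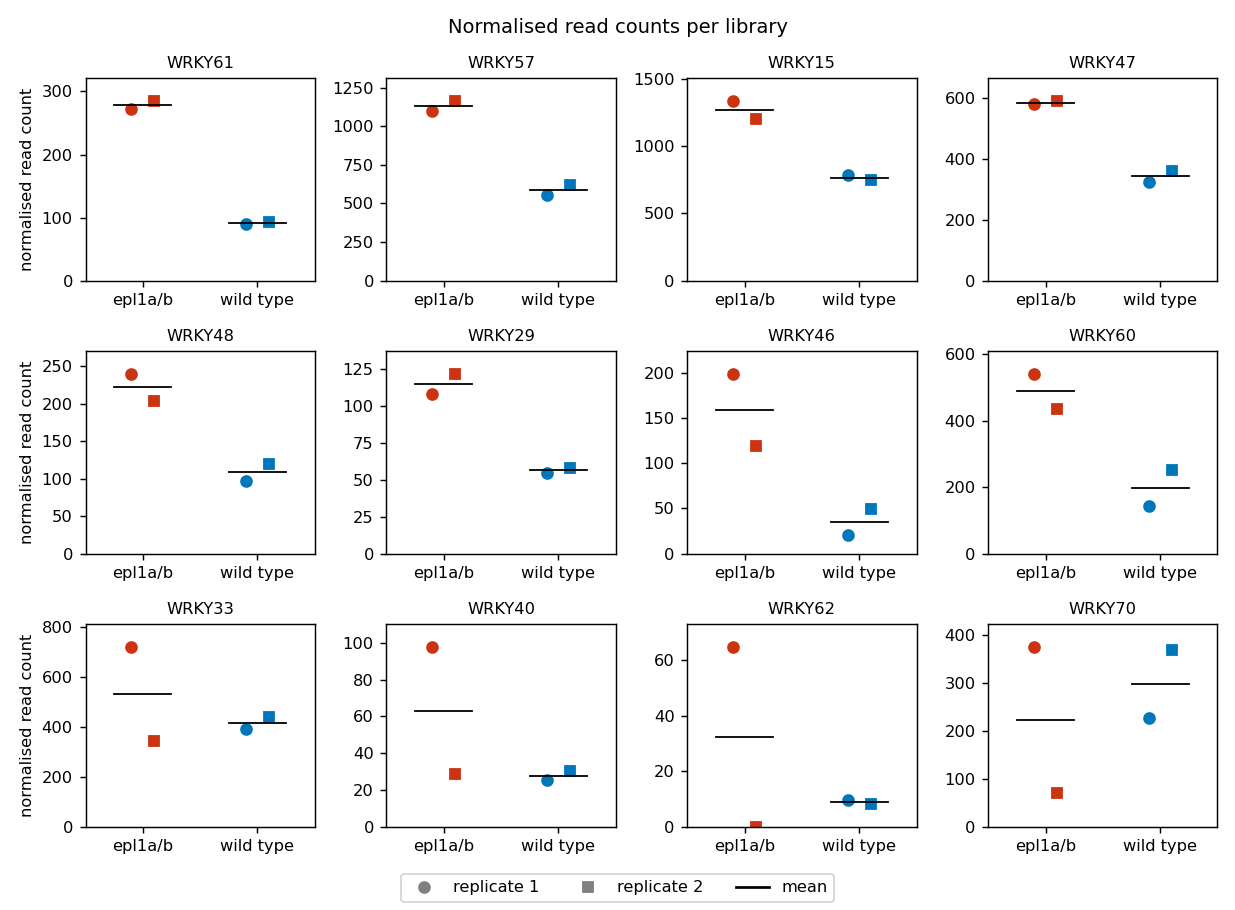
Normalised read counts of 12 WRKY members in each library, epl1a/b on the left in red and wild type on the right in blue (y axis, linear from 0). Circles are replicate 1, squares replicate 2 and lines the mean of 2 libraries. WRKY61, WRKY57, WRKY15, WRKY47, WRKY48 and WRKY29 show tight, separate pairs, while WRKY33, WRKY40, WRKY62 and WRKY70 differ more between the epl1a/b libraries than between genotypes.

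Subgroup III had the highest and the lowest fitted changes of the family, and the widest median gap between the epl1a/b libraries of any subgroup. WRKY46 (AT2G46400), which acts with WRKY53, WRKY54 and WRKY70 in defence, drought and brassinosteroid responses, had 199 and 119 in epl1a/b, against 20.4 and 49.6 in wild type. It was called 4.70-fold higher (log2 change 2.23 with SE 0.48; limma adjusted p = 0.016), a call that failed without epl1a/b replicate 1 (1.86). WRKY55 (AT2G40740), a low gene beside WRKY54 on chromosome 2, had 7.72 and 12.4 in epl1a/b, against 3.17 and 3.12 in wild type (log2 change 1.38 with SE 0.47; limma adjusted p = 0.0447). Its groups did not overlap, yet its call failed without any 1 of the 4 libraries (1.07 to 1.69), as well as with DESeq2 (adjusted p = 0.294).

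The other 8 members of subgroup III were not called. That left 2 of 10 called higher (20%, near the 22.5% of all genes tested) and 0 lower (against 24.1%). WRKY70 (AT3G56400), a hub between salicylic acid and jasmonate signalling, had 376 and 69.3 in epl1a/b, against 228 and 369 in wild type. The epl1a/b values bracket the wild type ones, and its log2 change of -0.84 ± 1.16 (SE; limma adjusted p = 0.621) became 0.37 without epl1a/b replicate 2. WRKY53 (AT4G23810), an activator of leaf senescence, had 182 and 54.8 in epl1a/b, against 25.6 and 54.8 in wild type (log2 change 1.39 with SE 0.73; limma adjusted p = 0.204). The lower epl1a/b value equals the higher wild type value to 3 digits, and 20.5% of WRKY53 exon bases are overlapped by another gene. WRKY54 (AT2G40750), which with WRKY70 holds back senescence, had 28.4 and 14.5 in epl1a/b, against 36.9 and 36.3 in wild type. Its epl1a/b values were both lower without a call (log2 change -0.82 with SE 0.36; limma adjusted p = 0.0966).

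WRKY62 (AT5G01900), which with WRKY38 represses basal defence, had 64.9 and 0 in epl1a/b, against 9.49 and 8.31 in wild type. These stand for 72 and 0 reads in epl1a/b, against 9 and 8 in wild type. WRKY38 followed the same order, with 28.8 and 2.92 in epl1a/b, against 7.39 and 7.27 in wild type. WRKY30 (AT5G24110) had 41.0 and 13.3 in epl1a/b, against 7.44 and 11.4 in wild type (log2 change 1.26 with SE 0.54; limma adjusted p = 0.0919). WRKY41 and WRKY63, an abscisic acid response factor, had at most 6 reads in any library.

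Subgroup III stood out for gaps between the epl1a/b libraries, and epl1a/b replicate 1 was the higher one in 8 of its 10 members. Across the family, the gap between the epl1a/b libraries was past 2-fold for 9 of 58 members, 15.5% against 6.23% of all genes tested, and epl1a/b replicate 1 was the higher one in all 9. Among genes with a mean of at least 10, the shares were 16.7% of members and 2.19% of all genes. The 9 are WRKY30, WRKY38, WRKY53, WRKY62 and WRKY70 of subgroup III, WRKY40 of IIa, WRKY50 and WRKY51 of IIc, and WRKY33 of I. The median absolute gap in epl1a/b was 1.24 in log2 for subgroup III, 0.825 for subgroup IIa with its 3 members, 0.241 for all members and 0.136 for all genes tested. In wild type the median absolute gap was 0.491 for subgroup III, 0.82 for subgroup IIa, 0.148 for all members and 0.145 for all genes tested. The wild type gap was past 2-fold for 3 members, WRKY41, WRKY46 and WRKY53, each with replicate 2 higher, which is 5.17% of members against 7.1% of all genes tested. All 3 belong to subgroup III and make up 30% of it. Among genes with a mean of at least 10, the wild type shares were 3.7% of members and 2.18% of all genes.

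WRKY33 (AT2G38470), the activator of camalexin synthesis genes that MPK3 and MPK6 phosphorylate, belongs to this group. It had 719 and 343 in epl1a/b, against 391 and 437 in wild type, so replicate 1 lay above and replicate 2 below both wild type libraries (log2 change 0.27 with SE 0.42; limma adjusted p = 0.654). Without epl1a/b replicate 1 its change was -0.27. PR1, SARD1 and CBP60G of salicylic acid signalling, chosen here after their values were seen, had gaps past 2-fold of the same direction. The epl1a/b gaps of other such genes were smaller. They were 0.676 in log2 for EDS1, 0.543 for PAD4, 0.247 for NPR3, 0.052 for NPR4 and 0.036 for NPR1. PR1, the classical marker of salicylic acid responses, had 1716 and 95.4 in epl1a/b, against 1.44 and 56.6 in wild type (log2 change 5.10 with SE 2.91; limma adjusted p = 0.292). SARD1, a regulator of salicylic acid synthesis, had 175 and 37.1 in epl1a/b, against 16.9 and 19.7 in wild type, and its relative CBP60G had 302 and 99.8 in epl1a/b, against 33.0 and 65.1 in wild type. limma called neither (adjusted p = 0.0971 for SARD1 and 0.108 for CBP60G), while DESeq2 called both higher (adjusted p = 0.000275 and 0.0499). The part of this difference between libraries in the genotype result was not tested.

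**Figure D4:**
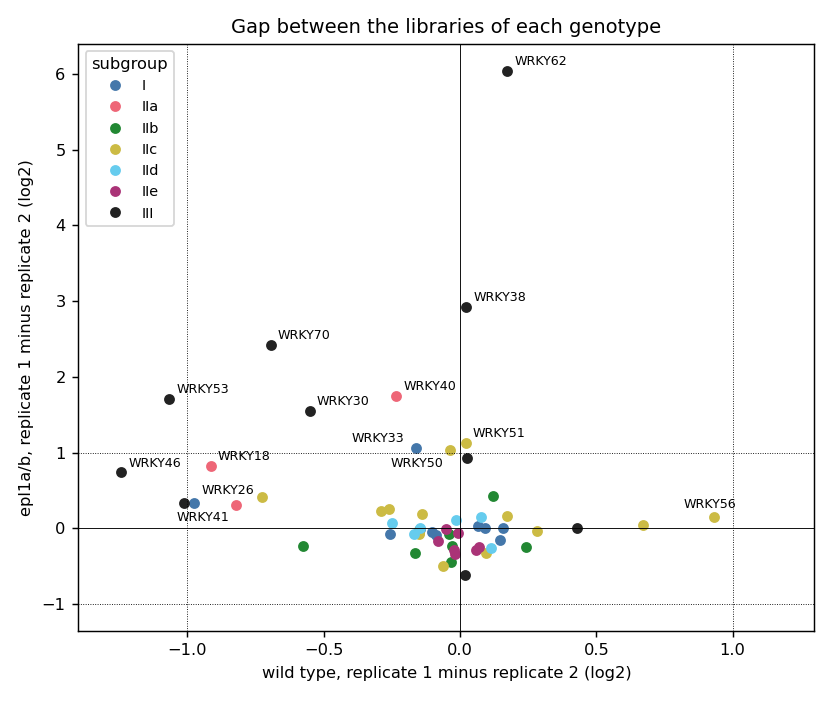
Gap between the libraries of each genotype, replicate 1 minus replicate 2 in log2(value + 1), for epl1a/b (y axis) and wild type (x axis), 1 point per WRKY member, coloured by subgroup. Dotted lines mark a 2-fold gap. The 9 members above the upper dotted line all have more transcript in epl1a/b replicate 1, and 5 of them are in subgroup III.

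Upstream of the WRKY factors, 3 of 10 genes of the MAP kinase cascade were called higher (30%, against 22.5% of all genes tested) and 1 lower (10%, against 24.1%), with a median log2 change of 0.08. MPK11, a close relative of MPK4, had 35.5 and 17.0 in epl1a/b, against 3.22 and 7.23 in wild type (log2 change 2.12 with SE 0.51; limma adjusted p = 0.0116). MKK4, the kinase that activates MPK3 and MPK6, rose by 0.52 ± 0.13 in log2 (SE; limma adjusted p = 0.0134), and MPK4, which acts with WRKY33 through the VQ protein MKS1, by 0.39 ± 0.07 (SE; limma adjusted p = 0.00406). MPK6 was called 1.18-fold lower. That call failed on equal totals (-0.002), with DESeq2 (adjusted p = 0.103), and without any 1 of the 4 libraries (-0.25 to -0.23). The MPK11 call failed without wild type replicate 1 (1.64) or epl1a/b replicate 1 (1.61), and the MPK4 call without epl1a/b replicate 1 (0.36). MKK4 lost its call without wild type replicate 1 (0.44) or 2 (0.60) or epl1a/b replicate 1 (0.36). Of the VQ proteins, short partners that bind WRKY factors, 3 of 4 were tested and 0 were called; the log2 changes were -0.35 for MKS1, -0.70 for SIB1 and 0.42 for JAV1. At an unadjusted p under 0.05, 1 VQ gene would pass, and edgeR calls 1 and DESeq2 0. SIB2 had 0 reads in all 4 libraries.

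Of 9 tested genes reported downstream of WRKY factors, 4 were called higher (44.4%, against 22.5% of all genes tested) and 2 lower (22.2%, near the 24.1% of all genes tested). Their median log2 change was 0.47. The camalexin genes CYP71A13 and PAD3, targets of WRKY33, were among the higher ones. CYP71A13 had 19.5 and 9.33 in epl1a/b, against 0.0208 and 3.09 in wild type (log2 change 2.83 with SE 0.75; limma adjusted p = 0.0163). PAD3 had 218 and 188 in epl1a/b, against 72.3 and 137 in wild type (log2 change 1.02 with SE 0.30; limma adjusted p = 0.0377). CYP81F2, an indole glucosinolate hydroxylase gene, had 101 and 60.4 in epl1a/b, against 27.7 and 47.6 in wild type (log2 change 1.09 with SE 0.34; limma adjusted p = 0.0349). In all 3 both epl1a/b values lay above both wild type values, which held for 38.1% of all genes tested. Each call failed without wild type replicate 1, where the log2 changes were 1.83, 0.57 and 0.71 in the order named. Each also failed without epl1a/b replicate 1 (2.34, 0.92 and 0.72) or without the other epl1a/b library (3.33, 1.13 and 1.46). The CYP81F2 call failed on leaving out wild type replicate 2 too (1.47), and that of CYP71A13 with DESeq2 (adjusted p = 0.0525). Leaving out any 1 library gave fewer higher calls in all 6 related lists together than the 14 with all libraries. Fewer of all genes tested were called higher in those fits too.

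The phosphate genes that WRKY6, WRKY42 and WRKY45 are reported to regulate also differed in direction. PHT1;1, the phosphate uptake transporter, had 917 and 1251 in epl1a/b, against 770 and 777 in wild type (log2 change 0.47 with SE 0.14; limma adjusted p = 0.037). PHO1, which loads phosphate into the xylem, had 2500 and 2142 in epl1a/b, against 3188 and 3411 in wild type (log2 change -0.51 with SE 0.09; limma adjusted p = 0.00294). PHT1;1 was thus above and PHO1 below wild type in both epl1a/b libraries. The PHT1;1 call failed without wild type replicate 1 (0.46) or 2 (0.48) or epl1a/b replicate 2 (0.24), and the PHO1 call without wild type replicate 2 (-0.46). GL2, a leaf hair regulator downstream of TTG2, was called 1.34-fold lower (limma adjusted p = 0.0155). The GL2 call failed on equal totals (-0.19), with DESeq2 (adjusted p = 0.0665), and without wild type replicate 1 (-0.31) or either epl1a/b library (-0.40 without replicate 1, -0.46 without 2). FRK1, ICS1 and PR1 were not called, and SAG12 had 0 reads in all 4 libraries.

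Among 7 salicylic acid regulators, 1 was called higher (14.3%, against 22.5% of all genes tested) and 2 lower (28.6%, against 24.1%). PAD4, which promotes salicylic acid accumulation, had 695 and 477 in epl1a/b, against 279 and 267 in wild type (log2 change 1.08 with SE 0.18; limma adjusted p = 0.00331). NPR1, the receptor and coactivator, had 280 and 273 in epl1a/b, against 436 and 475 in wild type (log2 change -0.72 with SE 0.09; limma adjusted p = 0.000678). The pairs did not overlap for either gene. NPR4, a receptor that acts as corepressor, fell by 0.46 on the log2 scale (limma adjusted p = 0.00349) and was not called on equal totals (-0.22).

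Rapid touch and wound genes, which also respond to handling within minutes, mostly rose. Of 8 genes 6 were called higher by limma (75%, against 22.5% of all genes tested) and 0 lower (0 lower also at an unadjusted p under 0.05 and by edgeR and DESeq2), with a median log2 change of 0.82 against 0.02 for all genes tested. TCH4, a cell wall enzyme gene, had 447 and 381 in epl1a/b, against 198 and 181 in wild type (log2 change 1.12 with SE 0.12; limma adjusted p = 0.000224). ERF104, an ethylene response factor, rose by 1.18 with SE 0.26 in log2 (limma adjusted p = 0.0109), and ZAT10, a zinc finger repressor, by 1.15 with SE 0.30 (limma adjusted p = 0.0172). The ERF104 call failed without epl1a/b replicate 1 (1.10) or 2 (1.25), and the ZAT10 call without wild type replicate 1 (1.03) or 2 (1.27) or epl1a/b replicate 1 (0.70). Their part in the WRKY values was not tested.

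Of 5 senescence genes tested, 3 were called lower by limma (60%, against 24.1% of all genes tested) and 0 higher, also at an unadjusted p under 0.05 and by edgeR. NAP, a NAC factor that drives leaf senescence, had 79.0 and 64.4 in epl1a/b, against 358 and 333 in wild type, 4.79-fold lower (log2 change -2.26 with SE 0.15; limma adjusted p = 1.85e-05). SAG29, a sugar transporter gene, had 398 and 313 in epl1a/b, against 1054 and 1764 in wild type (log2 change -1.95 with SE 0.31; limma adjusted p = 0.012). ORE1, another NAC factor of senescence, was 1.76-fold lower (limma adjusted p = 0.00583), and lost its call without wild type replicate 2 (-0.59) or either epl1a/b library (-0.87 without replicate 1, -0.77 without 2). SAG13 had 857 and 304 in epl1a/b, against 10.1 and 91.7 in wild type, and was not called by limma (log2 change 3.99 with SE 1.57; adjusted p = 0.17) but was by DESeq2 (adjusted p = 0.0426).

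Because WRKY factors bind the W-box in promoters of their own family, the window from 250 bases before to 50 bases after each gene start was searched for TTGACC and TTGACT on both strands. A W-box was present in 22 of 58 member windows (37.9%), against 32.6% of the windows of all genes tested. At least 2 were present in 11 members (19.0%), against 7.58% of all genes tested. Those 11 are WRKY9, WRKY15, WRKY17, WRKY29, WRKY30, WRKY32, WRKY33, WRKY41, WRKY45, WRKY53 and WRKY62. Among the members called higher, 8 of 24 windows held a W-box (33.3%), close to the share of all genes. By subgroup, a W-box was present in 5 of 10 windows in I, 0 of 3 in IIa, 4 of 8 in IIb, 4 of 14 in IIc, 3 of 6 in IId, 1 of 7 in IIe and 5 of 10 in III. A match is only a run of letters, and no match says only that these letters are not in the window.

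The windows below show the spacing in WRKY15, the highest member, WRKY45, higher both in epl1a/b and in dark, and WRKY62, which split the epl1a/b libraries, beside WRKY46, which has the largest called change and no match. W-boxes are in capitals, as TTGACC or TTGACT or, on the other strand, GGTCAA or AGTCAA. They are on TAIR10.1 at chr2:9924636-9924935 (WRKY15, plus strand), chr3:327363-327662 (WRKY45, minus strand), chr5:352046-352345 (WRKY62, minus strand) and chr2:19044906-19045205 (WRKY46, minus strand), each read 5′ to 3′ along the gene.
WRKY15: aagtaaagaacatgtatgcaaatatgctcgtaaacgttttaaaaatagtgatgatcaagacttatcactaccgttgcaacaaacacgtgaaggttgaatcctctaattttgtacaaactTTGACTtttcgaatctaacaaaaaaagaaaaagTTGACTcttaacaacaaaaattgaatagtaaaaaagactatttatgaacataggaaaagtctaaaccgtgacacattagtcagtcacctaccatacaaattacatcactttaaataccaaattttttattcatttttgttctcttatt
WRKY45: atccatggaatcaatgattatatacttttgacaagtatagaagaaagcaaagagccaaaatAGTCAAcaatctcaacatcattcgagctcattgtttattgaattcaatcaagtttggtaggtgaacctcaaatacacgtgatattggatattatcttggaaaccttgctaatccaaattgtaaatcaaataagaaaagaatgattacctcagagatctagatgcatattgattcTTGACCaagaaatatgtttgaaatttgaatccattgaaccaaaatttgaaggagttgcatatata
WRKY62: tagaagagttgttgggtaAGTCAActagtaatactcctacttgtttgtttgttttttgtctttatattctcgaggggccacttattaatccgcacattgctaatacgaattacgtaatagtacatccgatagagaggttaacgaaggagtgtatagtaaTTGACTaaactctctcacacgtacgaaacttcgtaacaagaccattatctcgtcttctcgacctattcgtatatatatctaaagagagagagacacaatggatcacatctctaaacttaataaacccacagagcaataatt
WRKY46: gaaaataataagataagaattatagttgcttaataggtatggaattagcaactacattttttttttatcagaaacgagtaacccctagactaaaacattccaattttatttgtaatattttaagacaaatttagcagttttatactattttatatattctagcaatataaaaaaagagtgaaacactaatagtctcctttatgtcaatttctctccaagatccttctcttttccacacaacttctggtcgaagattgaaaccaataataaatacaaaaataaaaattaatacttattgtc

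The W-boxes of WRKY15 start 131 and 98 bases before the gene start, those of WRKY45 189 and 15 bases before it, and those of WRKY62 232 and 91 bases before it. Both of WRKY15 lie on the gene's own strand, while WRKY45 and WRKY62 have 1 on each strand.

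In Col-0 seedlings kept in the dark, the WRKY family did not move as a block. The dark library held 18798088 counts and the light library 27831231, and with 1 library per condition no test was possible, so the values below have no replicate check. Of the 52 members with at least 10 counts in total, 7 were past 2-fold higher in dark (13.5%), against 15.7% of all 21128 genes compared, and 10 were past 2-fold lower (19.2%), against 19.4%. These shares are near those of all genes. The median log2 ratio, dark over light, was 0.08 for the members and -0.02 for all genes. WRKY41, WRKY43, WRKY51, WRKY55, WRKY62 and WRKY63 had under 10 counts.

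The libraries also differed in tissue markers. Seed storage and oil body genes summed to 6990 CPM (counts divided by TMM-adjusted depth) in dark and 28.5 CPM in light. All 10 of these genes were past 2-fold higher in dark, against 15.7% of all genes compared. Leaf markers summed to 12700 CPM in dark and 57400 CPM in light. Of 9 root markers 3 were past 2-fold higher in dark (33.3%, against 15.7% of all genes compared). The part of these differences in the WRKY ratios was not tested.

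Subgroup III was lower in dark. Of its 6 members with enough counts, 5 were past 2-fold lower (83.3%, against 19.4% of all genes compared) and 0 higher (against 15.7%). WRKY46 had 18 counts in dark and 83 in light, 0.885 and 3.23 CPM, a ratio of 0.274 (95% interval 0.155 to 0.461). All dark and light intervals are exact Clopper-Pearson intervals that cover counting error only. WRKY53 had 33 counts in dark and 87 in light, 1.62 and 3.38 CPM (ratio 0.48, interval 0.311 to 0.724). WRKY70 had 32 counts in dark and 90 in light, 1.57 and 3.50 CPM (ratio 0.45, interval 0.291 to 0.68). All 3 intervals lie under 1. WRKY54 had 0 counts in dark and 10 in light, at least 2.63-fold lower when the dark count is held at 3. WRKY30 had 1 count in dark and 20 in light (ratio 0.0633, interval 0.00153 to 0.396). WRKY38, with 6 counts in each, could not be separated from no change (interval 0.338 to 4.73).

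WRKY40 had the lowest ratio among members with over 100 counts. It had 64 counts in dark and 573 in light, 3.15 and 22.3 CPM (ratio 0.141, interval 0.107 to 0.183). Its partners WRKY18 and WRKY60 stayed close to level, with 8.26 CPM in dark and 9.33 in light for WRKY18 (interval 0.723 to 1.08) and 3.64 CPM in dark and 4.20 in light for WRKY60 (interval 0.636 to 1.18). The intervals of both partners lie above that of WRKY40. WRKY33 had 394 counts in dark and 1109 in light, 19.4 and 43.1 CPM (ratio 0.45, interval 0.4 to 0.505). WRKY22 had 7.18 CPM in dark and 14.7 in light (ratio 0.49, interval 0.402 to 0.595). WRKY28 (AT4G18170), an activator of salicylic acid synthesis, had 5 counts in dark and 24 in light (interval 0.0786 to 0.705), and WRKY71 had 2 and 10 (ratio 0.253, interval 0.027 to 1.19). On library totals 6 members were past 2-fold lower, and the share of all genes past that line there was not computed. The median log2 ratio of all genes rose there from -0.02 to 0.21, and that of members from 0.08 to 0.30. WRKY22, WRKY33, WRKY53 and WRKY70 then had log2 ratios of -0.80, -0.92, -0.80 and -0.89.

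**Figure D5:**
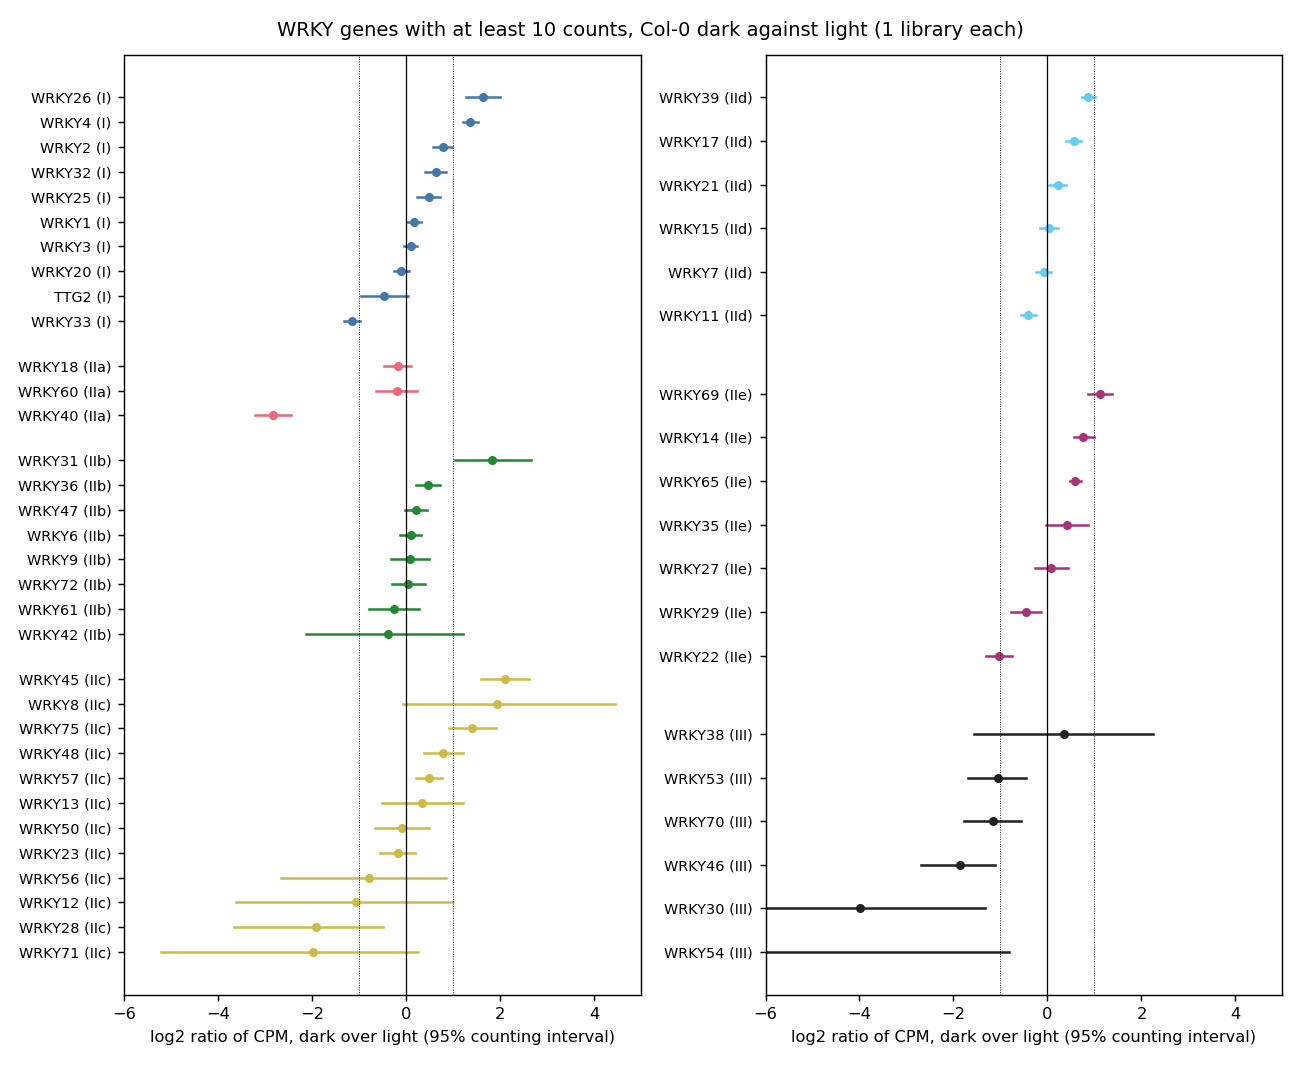
Log2 ratio of CPM, dark over light, for the 52 WRKY members with at least 10 counts in total, by subgroup (x axis; points are ratios without added counts, lines are exact 95% counting intervals, dotted lines mark 2-fold; 1 library per condition). WRKY40 and most of subgroup III lie left of the lower dotted line, and WRKY45, WRKY31, WRKY26, WRKY4 and WRKY75 right of the upper one. WRKY54 has no point because its dark count is 0, and lines that reach the left edge go beyond it.

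The members higher in dark came from other subgroups. WRKY45 had 145 counts in dark and 43 in light, 7.13 and 1.67 CPM (ratio 4.27, interval 3.02 to 6.14). WRKY75 had 108 counts in dark and 52 in light, 5.31 and 2.02 CPM (ratio 2.63, interval 1.87 to 3.73). Both are known as activators of leaf senescence, and both are in subgroup IIc. In subgroup I, WRKY26 had 10.8 CPM in dark and 3.50 in light (interval 2.40 to 3.98), and WRKY4 had 48.4 CPM in dark and 18.8 in light (interval 2.31 to 2.88). WRKY31 had 53 counts in dark and 19 in light (interval 2.06 to 6.31), WRKY69 (AT3G58710) had 17.5 CPM in dark and 8.08 in light (interval 1.81 to 2.58), and WRKY8 had 9 and 3 counts (ratio 3.80, interval 0.947 to 21.8). The interval of WRKY8 includes 1, and those of the other 6 do not.

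Many members stayed near level in dark. WRKY6 had 15.5 CPM in dark and 14.5 in light (ratio 1.07, interval 0.917 to 1.24), and TTG2 had 2.70 in dark and 3.73 in light (ratio 0.725, interval 0.511 to 1.02). All 6 members of subgroup IId were within 2-fold, from 0.754 for WRKY11 to 1.83 for WRKY39, and WRKY39 passed 2-fold on library totals (log2 ratio 1.10, against 0.87). WRKY15 had 20 CPM in dark and 19.5 in light (interval 0.898 to 1.17). The interval excluded 1 for 29 of the 52 members, which reflects depth as well as size. The share of all genes compared whose interval excluded 1 was not computed.

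The related lists in dark ran as follows. All 8 rapid touch and wound genes had ratios under 1, and 7 of them were past 2-fold lower (87.5%, against 19.4% of all genes compared). ZAT12 had 3.39 CPM in dark and 29.7 in light, and ERF104, at the 2-fold line, 25.6 in dark and 51.1 in light. Of 7 salicylic acid regulators 3 were past 2-fold lower (42.9%, against the same 19.4%), among them CBP60G with 13 counts in dark and 91 in light. PAD3 had 16 counts in dark and 163 in light (interval 0.0693 to 0.208), and PHT1;1 had 716 and 2974 (interval 0.28 to 0.331). The senescence factors NAP and ORE1 were higher, with 12.9 CPM in dark and 1.98 in light for NAP and 10.2 in dark and 3.30 in light for ORE1. None of 9 MAP kinase cascade genes passed 2-fold, against 15.7% higher and 19.4% lower of all genes compared.

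The genotype and the dark comparison share no library. Of the 24 members called higher in epl1a/b, WRKY8, WRKY31, WRKY45 and WRKY69 were past 2-fold higher in dark, 4 of 24 or 16.7%, near the 15.7% of all genes compared. WRKY46 and WRKY71 were past 2-fold lower, 2 of 24 or 8.33%, against 19.4% of all genes compared. A further 16 were within 2-fold and 2 had too few counts. WRKY45 had a log2 change of 1.53 in epl1a/b and a log2 ratio of 2.04 in dark, and WRKY31 had 1.09 and 1.71. WRKY46 ran in opposite directions, with 2.23 in epl1a/b and -1.77 in dark. Of the 10 members past 2-fold lower in dark, 8 were not called in epl1a/b, while 53.4% of all members and 53.3% of all genes tested were not called there. WRKY30, WRKY33, WRKY40, WRKY53 and WRKY70 among them are members whose epl1a/b libraries differed by more than 2-fold. The 3 members called lower in epl1a/b were all within 2-fold in dark.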

How the data were processed

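Gene-level RNA-seq tables were used, made with HISAT2, featureCounts and edgeR on the TAIR10 build, per the submitters' processing notes; versions, settings and use of strand are not given in the sources used here. The authors deposited the genotype table as a normalised signal (normalised read counts, per the file headers) and the dark and light table as raw counts. The normalised values could be inverted to whole reads for 32548 of 32548 genes (100%, tolerance 1e-06, dispersion 0.00642).

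Because the genotype values are normalised, limma 3.58.1 (R 4.3.3; trend and robust) was run on log2(value + 1) of genes reaching a value of 1 in at least 2 libraries, with Benjamini-Hochberg adjustment over 23658 genes. edgeR 4.0.16 and DESeq2 1.42.0 on the recovered reads were alternatives. The dark and light counts were scaled with TMM factors of 1.082 and 0.924, and 2-fold calls used a prior count of 2. Bounds take 3 counts for 0 in a library. The fitting script was tested on simulated data.

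The members, lists and rules were chosen with earlier results of these data known. Values per library were fixed for members called with at least 2-fold change, for members past 4-fold in dark against light with 20 counts, and for WRKY6, WRKY18, WRKY33, WRKY40, WRKY46, WRKY53, WRKY54, WRKY60, WRKY70, WRKY75 and TTG2. Up to 3 called genes are named per related list; SARD1, CBP60G, PR1, SAG13 and the other genes named beyond these rules were chosen after their values were seen. TAIR10.1 has the chromosome lengths of TAIR10, and no sequence was taken from elsewhere.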

Additional observations from a re-analysis of the deposited data

How the results depend on the processing

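WRKY3, WRKY15, WRKY29, WRKY47, WRKY48, WRKY57 and WRKY61 kept their higher call in every fit that left out 1 library. No lower call was kept in every such fit. The share of all genes that kept a call in this way was not computed, so this result has no background. In such a fit the lone library of a genotype is assumed to vary like the pair. These fits also called members that the full fit did not, so their calls are not a subset of the main calls. Without epl1a/b replicate 1, WRKY1, WRKY6 and WRKY32 lost their calls and other members were called lower. Leaving out 1 library gave 14 to 20 members called higher and 0 to 3 lower, and 4 to 11 genes of the related lists higher and 5 to 7 lower. Scaling to equal library totals gave 0 members and 5 related genes lower, against 15.8% of all genes tested there. Library totals gave 6 members past 2-fold lower in dark, where the share of all genes was not computed. The log2 change reversed on equal totals for WRKY2 (0.041), WRKY4 (0.104), WRKY20 (0.156) and WRKY35 (0.182). Leaving out epl1a/b replicate 1 or 2 in turn moved it between -0.268 and 0.799 for WRKY33, -0.196 and 0.085 for WRKY35, -1.089 and 1.838 for WRKY38, -0.449 and 0.583 for WRKY50, -3.305 and 2.737 for WRKY62 and -2.049 and 0.373 for WRKY70, and DESeq2 gave 1.829 for WRKY62. None of these genes was called, and the cause was not tested.

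Same-numbered libraries did not deviate together (r = -0.141 over 23658 genes). With 2 libraries per genotype, this value cannot show whether same-numbered libraries were grown or prepared together. With a replicate block 23 members were higher and 2 lower, and 13 related genes higher and 8 lower. Of all genes tested, 19.4% were higher and 21.6% lower with that block. With the pairing crossed, chosen after seeing the data, 26 members were higher and 2 lower, against 22.6% and 23.6% of all genes tested. A pseudocount of 0.1 and other filters gave 23 to 25 members higher and 3 lower. All genes tested there were 21.1% to 24.7% higher and 22.2% to 27.7% lower. With 2 libraries per genotype and 1 per light condition, small changes and genes with few reads cannot be resolved.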
